A study of Mus musculus with 22 samples.

Results

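The 10 genes described here encode the killing machinery and receptors of cytotoxic lymphocytes, and a transcription factor, Eomes. The products of Gzma, Gzmb, Prf1 and Fasl act on target cells, and that of Nkg7 takes part in granule release. Klrk1, Klrd1, Klre1 and Ncr1 encode receptors of natural killer (NK) cells. The 10 genes were chosen by symbol, and each matched 1 of the 56748 mouse Ensembl gene IDs in every file. All 10 were among the 19202 genes that passed the low-count filter. RNA was sequenced from 22 primary tumours of the mouse cheek lining, a model of squamous carcinoma of the head and neck. Every tumour carried Krt5CreER-T2/+, Trp53fl/fl and, on both Rosa26 alleles, LSL-PIK3CA(H1047R), so loss of Trp53 and activated PIK3CA were shared by all groups. Tumours were started by 4-hydroxytamoxifen injected into the cheek lining. The Keap1-wildtype untreated group (6 tumours) had no further allele or agent, and the Keap1-wildtype BAP group (6 tumours) also received BAP, which is benzo[a]pyrene, a tobacco carcinogen. The Keap1-deleted untreated group (5 tumours) and the Keap1-deleted BAP group (5 tumours) carried Keap1fl/fl in addition. KEAP1 holds down the transcription factor NRF2. The Cre is driven by the Krt5 promoter of basal keratinocytes, so cells without Krt5, lymphocytes included, are not its intended targets. The study set out to ask, among other things, how KEAP1 and NRF2 bear on the immune cells of the tumour. No source used here gives the age of the mice or says if any mouse gave more than 1 tumour, so p values measure the spread between these samples.

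NK cells and cytotoxic T cells kill by emptying granules onto a target cell. Perforin, the product of Prf1, opens the target's membrane, and granzymes, which are serine proteases, enter and start cell death. NK cells decide by weighing activating against inhibitory receptors, many of which in mice belong to a lectin-like family encoded in a cluster, the NK gene complex. In squamous carcinoma both cell types are found among the leukocytes that enter the tumour. In these whole-tumour libraries fewer cells of a type and less RNA per cell cannot be told apart.

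In GENCODE M21 coordinates on GRCm38, Klre1 (chr6:129577905-129585827, plus strand), Klrd1 (chr6:129591782-129598775, plus strand) and Klrk1 (chr6:129610323-129623864, minus strand) lie beside each other. Ncr1 is at chr7:4337724-4345164 and Nkg7 at chr7:43437073-43438249, both on the plus strand. Gzma is at chr13:113093825-113100981 and Gzmb at chr14:56258838-56262260, both on the minus strand. Prf1 is at chr10:61297833-61304680 and Eomes at chr9:118478212-118486132, both on the plus strand, and Fasl is at chr1:161780689-161788495 on the minus strand. No stretch of 100 bases in any annotated transcript of the 10 genes recurs in another gene. Eomes overlaps a predicted gene on the opposite strand, Gm33460, which had 69 counts in the 22 libraries against 1945 for Eomes. The other 9 overlap no annotated gene.

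RefSeq promoters (GRCm38.p6, from 250 bases before to 50 after the gene's start) were at hand for 9 of the 10 genes, all but Klrd1. They are shown for the 4 granule genes and Ncr1, which the results below turn on, 5′ to 3′ on the gene's own strand, with matches to the searched letters in capitals. The searched letters, on both strands, were AGGTGT, the core bound by T-box factors such as EOMES, TGTGGT, the core bound by Runx factors, and TTCNNNGAA, the STAT palindrome. Read on the opposite strand the first appears as ACACCT and the next as ACCACA. No match overlapped another.
Prf1: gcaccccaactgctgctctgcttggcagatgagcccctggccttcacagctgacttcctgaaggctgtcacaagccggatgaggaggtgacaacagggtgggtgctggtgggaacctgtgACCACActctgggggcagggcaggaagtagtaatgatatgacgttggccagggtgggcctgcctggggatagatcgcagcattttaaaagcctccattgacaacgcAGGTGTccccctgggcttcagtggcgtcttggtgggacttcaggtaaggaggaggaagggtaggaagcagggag
Gzma: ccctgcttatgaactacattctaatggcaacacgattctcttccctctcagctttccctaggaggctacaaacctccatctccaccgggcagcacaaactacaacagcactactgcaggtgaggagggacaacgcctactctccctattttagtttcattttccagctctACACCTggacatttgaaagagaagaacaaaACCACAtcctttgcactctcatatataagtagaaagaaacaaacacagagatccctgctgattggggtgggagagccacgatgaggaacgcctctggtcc
Gzmb: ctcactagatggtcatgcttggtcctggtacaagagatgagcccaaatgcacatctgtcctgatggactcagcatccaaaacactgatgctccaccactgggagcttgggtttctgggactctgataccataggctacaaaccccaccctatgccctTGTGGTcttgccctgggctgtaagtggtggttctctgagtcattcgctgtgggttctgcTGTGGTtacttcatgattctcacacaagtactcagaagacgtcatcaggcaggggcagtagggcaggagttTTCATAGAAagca
Nkg7: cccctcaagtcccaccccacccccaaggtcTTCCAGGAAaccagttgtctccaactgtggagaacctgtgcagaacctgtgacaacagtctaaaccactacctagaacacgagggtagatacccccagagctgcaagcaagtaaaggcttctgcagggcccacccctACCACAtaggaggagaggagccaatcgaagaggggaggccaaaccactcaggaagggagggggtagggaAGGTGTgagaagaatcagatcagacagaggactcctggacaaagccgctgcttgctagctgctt
Ncr1: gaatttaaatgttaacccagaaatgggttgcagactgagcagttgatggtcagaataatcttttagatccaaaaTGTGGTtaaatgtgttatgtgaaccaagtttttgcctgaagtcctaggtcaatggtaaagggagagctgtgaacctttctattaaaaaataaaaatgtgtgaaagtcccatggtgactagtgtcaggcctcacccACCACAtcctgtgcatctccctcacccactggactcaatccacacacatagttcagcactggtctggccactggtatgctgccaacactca

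These windows span chr10:61297586-61297885 for Prf1, chr13:113100932-113101231 for Gzma, chr14:56262285-56262584 for Gzmb, chr7:43436888-43437187 for Nkg7 and chr7:4337465-4337764 for the first of the RefSeq starts of Ncr1. A gene was counted if any of its promoters matched (11 promoters for the 9 genes), while the shares beside it are of single promoters. The Runx core was found in 7 of the 9 genes, against 16.8% of the 32851 mouse promoters in the same table. The T-box core was found in 3 of the 9, Prf1, Gzma and Nkg7, against 13.7% of all promoters. The STAT palindrome was found in Gzmb and Nkg7, against 8.3%. Fasl and Eomes had none of the 3. A match is a run of letters and was not tested as a binding site.

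The libraries held 29235010 to 39862777 counts each. Levels are given in CPM, a gene's count relative to all counts of its library, scaled by TMM, unless TPM, the measure per gene length computed with the deposited lengths, is named. Keap1 itself ranged from 45.8 to 78.9 CPM in the 12 wildtype libraries and from 9.45 to 36.4 CPM in 9 of the 10 deleted libraries. The library labelled Keap1-deleted BAP 2 had 65.6 CPM of Keap1 and so goes against its label by this measure, and 177 CPM of Nqo1, an NRF2 target that was at 19.4 to 85.8 CPM in the wildtype libraries. Nqo1 stood inside that wildtype range in Keap1-deleted BAP 3 and 4, at 19.4 and 54.3 CPM. Krt5, Krt14 and the other 8 basal keratinocyte markers summed to 29500 to 66400 CPM in Keap1-wildtype BAP tumours and to 81.6 to 1770 CPM in Keap1-deleted BAP tumours. Keap1-wildtype untreated 6 had 1180 CPM of them, while the other 5 libraries of its group had 20100 to 52700 CPM.

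All 10 genes were low in most tumours. Of 220 values, 50 were 0 and 108 rested on 10 counts or more. Zeros made up 18 of 60 values in Keap1-wildtype untreated tumours, 26 of 60 in Keap1-wildtype BAP, 4 of 50 in Keap1-deleted untreated and 2 of 50 in Keap1-deleted BAP tumours. All 10 genes reached 10 counts in 3 libraries, Keap1-wildtype untreated 6, Keap1-deleted untreated 3 and Keap1-deleted BAP 1. Summed without Eomes, the genes stood at 86.7 CPM in Keap1-deleted BAP 1 and at 52.4 CPM in Keap1-wildtype untreated 6. The other 20 tumours lay between 0.841 and 10.6 CPM, with a median of 2.92 CPM. These 2 tumours, from opposite corners of the design, held between 42.0% and 83.1% of the summed CPM of each gene other than Fasl and Eomes, and the comparisons below are given with and without them. Leukocyte markers summed to 1410 CPM in Keap1-wildtype untreated 6, the highest of all 22 libraries, and to 793 CPM in Keap1-deleted BAP 1, the seventh highest.

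**Figure D1:**
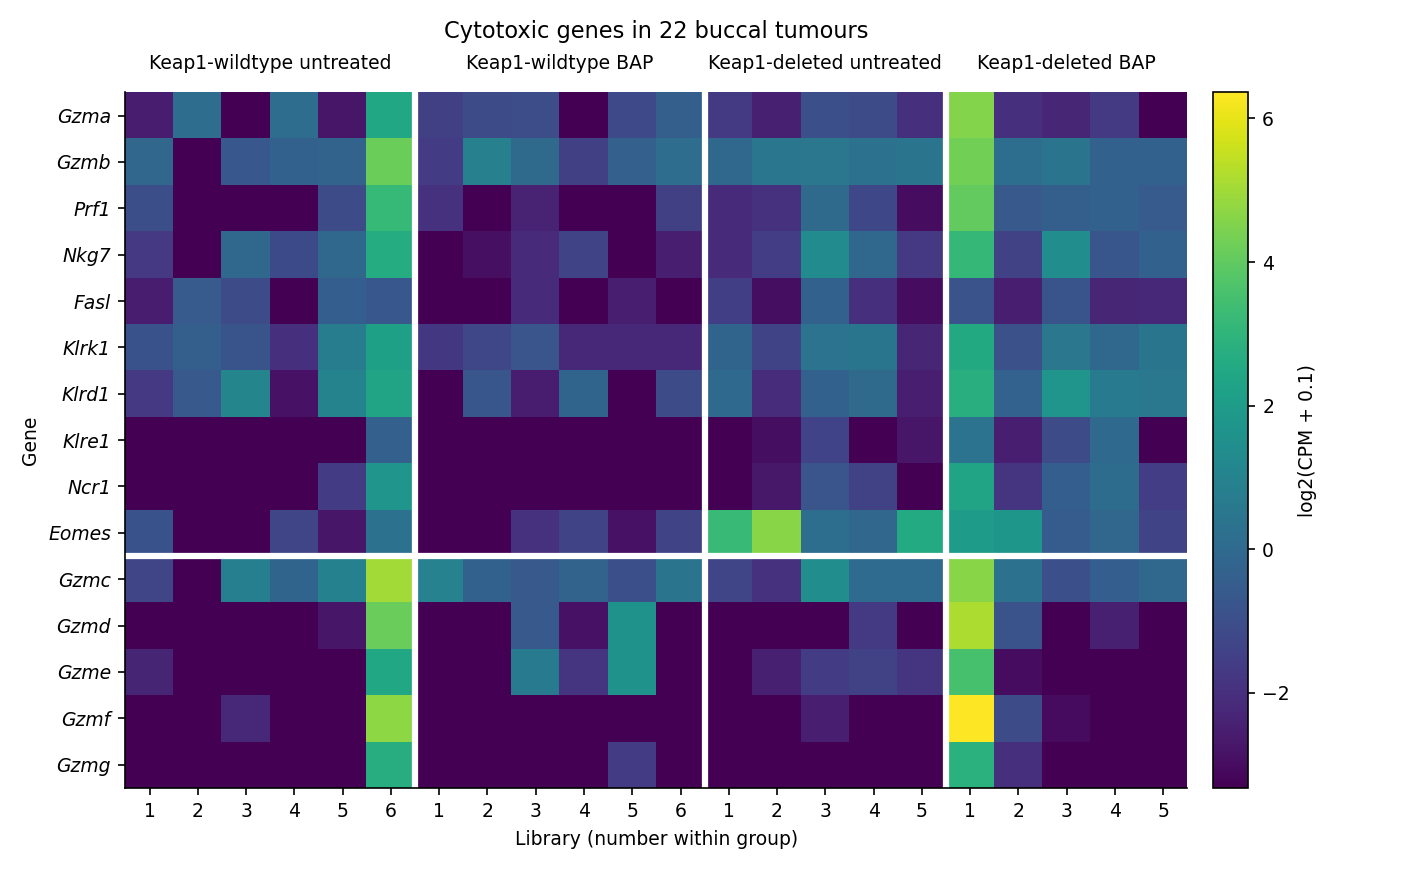
Level of the 10 genes and of granzymes C to G (rows) in each of 22 libraries (columns, by group and number), coloured by log2(CPM + 0.1). Keap1-wildtype untreated 6 and Keap1-deleted BAP 1 are bright in nearly every row, while Eomes is brightest in Keap1-deleted untreated 2, at 24.8 CPM.

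Gzma encodes granzyme A, a trypsin-like protease of cytotoxic granules. It ran from 0 through a median of 0.533 to 5.41 CPM in Keap1-wildtype untreated tumours and from 0 through 0.363 to 0.672 CPM in Keap1-wildtype BAP tumours. Keap1-deleted untreated tumours 1 to 5 had 0.217, 0.0804, 0.414, 0.36 and 0.155 CPM of it, and Keap1-deleted BAP tumours 1 to 5 had 23.4, 0.152, 0.103, 0.215 and 0 CPM. Apart from Keap1-deleted BAP 1 and Keap1-wildtype untreated 6, which together held 83.1% of all Gzma, no tumour exceeded 1.0 CPM, and the 4 groups overlapped.

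Gzmb encodes granzyme B, which cleaves after aspartate and activates caspases. Keap1-wildtype untreated tumours ranged from 0 through a median of 0.724 to 18.0 CPM, and Keap1-wildtype BAP tumours from 0.227 through 0.8 to 1.78 CPM. The 5 Keap1-deleted untreated tumours were close together, at 0.838, 1.31, 1.32, 1.11 and 1.22 CPM, and the Keap1-deleted BAP tumours stood at 19.5, 1.04, 1.24, 0.697 and 0.707 CPM. It was the most evenly detected of the effectors, absent from a single library (Keap1-wildtype untreated 2), and its highest pair of libraries held 68.6% of the total.

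Prf1, the perforin gene, was at 0 in 3 Keap1-wildtype untreated libraries, with a group median of 0.182 and a highest value of 8.78 CPM. It was also at 0 in 3 Keap1-wildtype BAP libraries, where the median was 0.0489 and the highest value 0.261 CPM. Keap1-deleted untreated tumours had 0.124, 0.161, 0.93, 0.33 and 0.0259 CPM of Prf1, and Keap1-deleted BAP tumours 16.4, 0.556, 0.66, 0.697 and 0.589 CPM. Every Keap1-deleted BAP tumour was above every Keap1-wildtype BAP tumour, which held for 13.8% of all genes tested.

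Nkg7 encodes a granule membrane protein of NK and cytotoxic T cells that takes part in granule release. Its lowest, median and highest levels were 0, 0.589 and 6.35 CPM in Keap1-wildtype untreated tumours and 0, 0.0533 and 0.296 CPM in Keap1-wildtype BAP tumours. In Keap1-deleted untreated tumours it was at 0.124, 0.241, 2.43, 0.839 and 0.207 CPM, and in Keap1-deleted BAP tumours at 8.57, 0.278, 2.62, 0.51 and 0.707 CPM. With BAP the genotypes overlapped only where the library labelled Keap1-deleted BAP 2, at 0.278 CPM, fell below the highest wildtype value.

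Fasl encodes the death ligand that engages FAS on target cells. It stayed under 1 CPM in all 22 libraries, with its highest value, 0.698 CPM, in Keap1-deleted untreated 3. Keap1-wildtype BAP tumours had a median of 0 CPM and 4 libraries with no count. Unlike the granule genes, it was not concentrated in the pair of high tumours, which held 20.3% of its total.

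**Figure D2:**
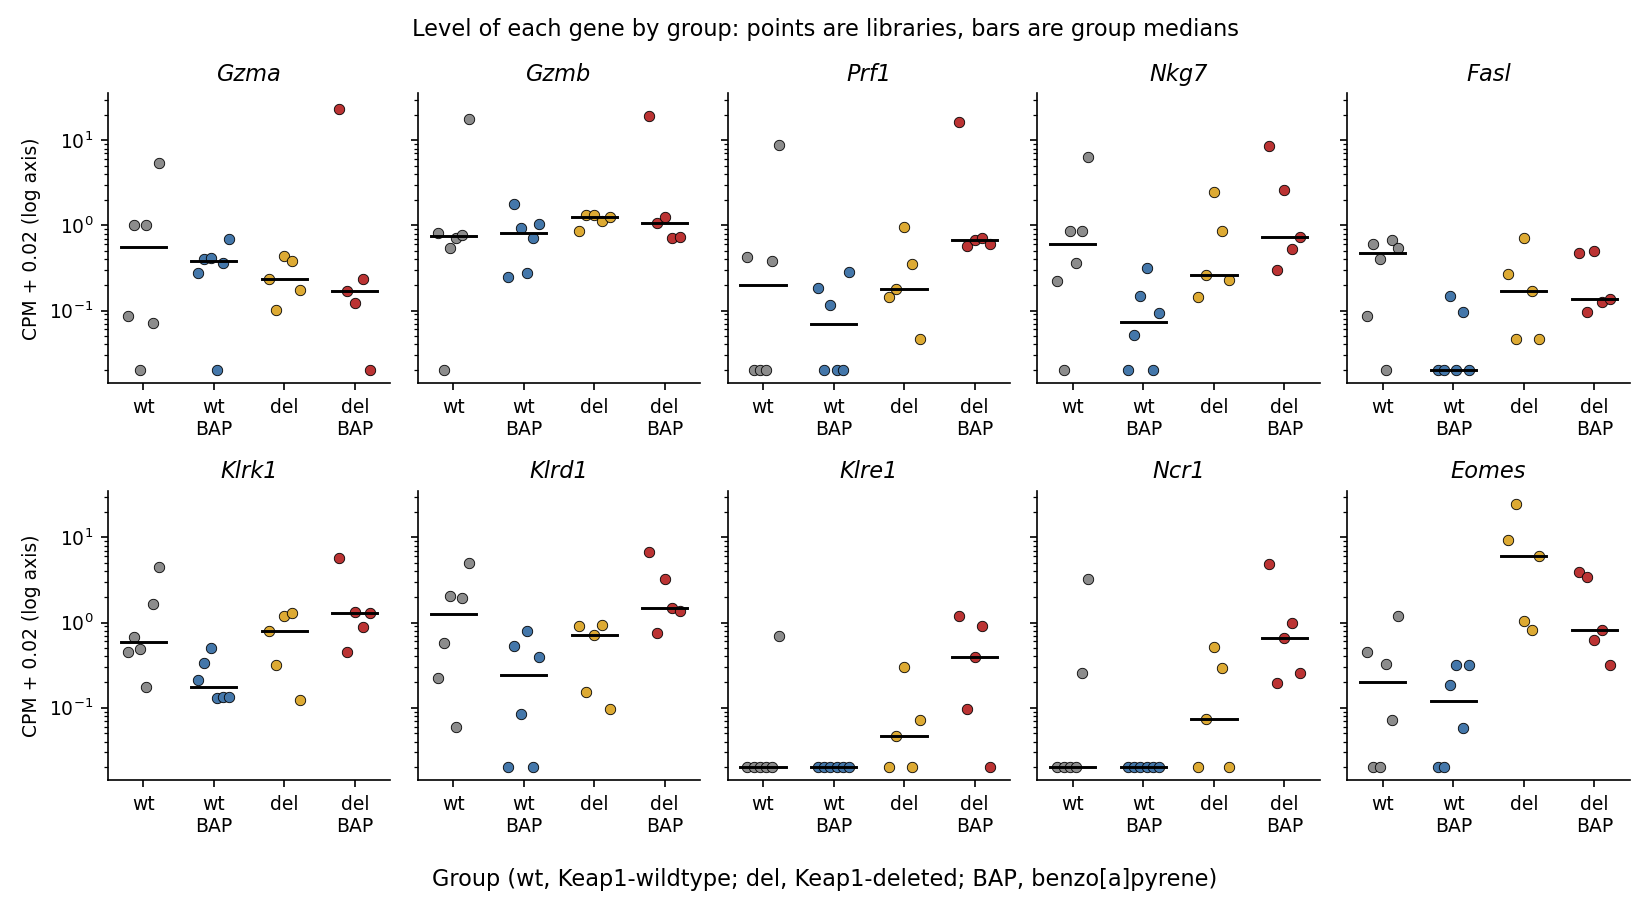
CPM of each gene, with 0.02 added, on a log axis, by group (6, 6, 5 and 5 libraries); each point is a library and each bar a group median. Single high points stand above Keap1-wildtype untreated and Keap1-deleted BAP for Gzma, Gzmb and Prf1, and Ncr1 and Klre1 lie on the floor of the plot, at 0 CPM, in all 6 Keap1-wildtype BAP libraries.

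Klrk1 encodes NKG2D, an activating receptor for stress-induced ligands. Its lowest, median and highest levels were 0.154, 0.566 and 4.46 CPM without BAP and 0.111, 0.154 and 0.489 CPM with BAP in Keap1-wildtype tumours. The Keap1-deleted untreated libraries read 0.776, 0.295, 1.19, 1.26 and 0.103 CPM, and the Keap1-deleted BAP libraries 5.73, 0.43, 1.32, 0.858 and 1.27 CPM. It was detected in every library, and 4 of the 5 Keap1-deleted BAP tumours exceeded all 6 Keap1-wildtype BAP tumours.

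Klrd1 encodes CD94, the partner chain of NKG2 receptors. Keap1-wildtype tumours spanned 0.0386 through a median of 1.24 to 4.92 CPM without BAP and 0 through 0.219 to 0.778 CPM with BAP. Keap1-deleted tumours had 0.9, 0.134, 0.698, 0.929 and 0.0776 CPM without BAP and 6.64, 0.733, 3.2, 1.48 and 1.36 CPM with BAP. The library labelled Keap1-deleted BAP 2 was again the only one of its group inside the Keap1-wildtype BAP range.

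Ncr1 encodes NKp46, an activating receptor that in mice marks NK cells and related innate lymphocytes. It was at 0 in 4 of 6 Keap1-wildtype untreated libraries, with 0.234 CPM in number 5 and 3.24 CPM in number 6. All 6 Keap1-wildtype BAP libraries had no count of it, which allows up to 0.0173 CPM over the group (a floor of 3 counts, for counting error only). Keap1-deleted tumours had 0, 0.0536, 0.491, 0.27 and 0 CPM without BAP and 4.89, 0.177, 0.64, 0.966 and 0.236 CPM with BAP, so every Keap1-deleted BAP tumour was above every Keap1-wildtype BAP tumour.

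Klre1, a lectin-like receptor of mouse NK cells, was the sparsest of the 10 genes. It was counted in 1 of 12 Keap1-wildtype libraries, number 6 of the untreated group, at 0.674 CPM. Keap1-deleted untreated tumours had 0, 0.0268, 0.284, 0 and 0.0517 CPM, and Keap1-deleted BAP tumours 1.18, 0.0758, 0.372, 0.885 and 0 CPM. Keap1-deleted BAP 4 came second here, ahead of Keap1-wildtype untreated 6.

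Eomes, the T-box factor on which NK cell maturation depends, followed another order. Its lowest, median and highest levels were 0, 0.18 and 1.17 CPM in Keap1-wildtype untreated tumours and 0, 0.101 and 0.299 CPM in Keap1-wildtype BAP tumours. It reached 9.37, 24.8, 1.03, 0.809 and 5.95 CPM in Keap1-deleted untreated tumours 1 to 5, and 3.86, 3.39, 0.599, 0.805 and 0.295 CPM in Keap1-deleted BAP tumours. The 3 tumours with the most Eomes, Keap1-deleted untreated 2, 1 and 5, had little or no Ncr1 (0.0536, 0 and 0 CPM) and Klre1 (0.0268, 0 and 0.0517 CPM), and Klrb1c, which encodes the NK1.1 family receptor, was at 0 in all 3. Other NK genes were mixed there. S1pr5, also listed as an NK marker, stood at 11.1, 17.1 and 10.9 CPM. It was likewise at 10.2 to 20.3 CPM in Keap1-wildtype BAP tumours, where Ncr1 and Klre1 had no count. Klrk1 (0.776 CPM) and Klrd1 (0.9 CPM) in Keap1-deleted untreated 1 were above the medians of the 20 libraries outside the high pair, 0.451 and 0.626 CPM. In Keap1-deleted untreated 2 and 5 both were below those medians. Klrk1 was at 0.295 and 0.103 CPM there, and Klrd1 at 0.134 and 0.0776 CPM. The pair of high tumours held 9.37% of all Eomes.

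Pearson correlations over the 22 libraries, on log2 CPM after subtraction of the group means, describe the same split. Across the 36 pairs of genes without Eomes they ran from 0.15 to 0.867, with a median of 0.627, and Prf1 with Ncr1 was the highest pair. Across the 9 pairs with Eomes they ran from -0.318 to 0.498, with a median of 0.165. The libraries share depth and cell make-up, so these are descriptions.

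Scaled per length, the order of the genes differed between the high tumours. In Keap1-deleted BAP 1 Gzma led with 69.1 TPM, before Gzmb (40.3 TPM), Nkg7 (27.9 TPM), Prf1 (18.9 TPM), Klrd1 (15.4 TPM) and Ncr1 (9.45 TPM). In Keap1-wildtype untreated 6 Gzmb led with 40.0 TPM, before Nkg7 (22.1 TPM), Gzma (17.2 TPM), Klrd1 (12.3 TPM), Prf1 (10.8 TPM) and Ncr1 (6.7 TPM). The level of Gzmb was nearly the same in both, while Gzma was higher in Keap1-deleted BAP 1.

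The same pair of tumours was high in granzymes C to G, which lie outside the 10 genes. Granzymes C to G, relatives of granzyme B known from activated mouse cytotoxic lymphocytes, summed to 162 CPM in Keap1-deleted BAP 1 and to 88.9 CPM in Keap1-wildtype untreated 6, against 0 to 6.57 CPM in the other 20 tumours. Gzmf was the highest of them in Keap1-deleted BAP 1, at 82.2 CPM, and Gzmc in Keap1-wildtype untreated 6, at 32.6 CPM. Gzmf had no count in 16 of the 22 libraries. Gzmd and Gzmg share a few 100-base stretches (2 of 865 and 2 of 810), so counts can move between them, but the sum is less exposed to this. Gzmk, known from T cells, stayed at or below 0.195 CPM and was at 0 in Keap1-deleted BAP 1, and Gzmn had no count in either high tumour. Gzmm, found in resting NK cells, stood at 1.39 CPM in Keap1-deleted BAP 1, its highest value, and at 0.285 CPM in Keap1-wildtype untreated 6. Of the 8 other granzymes, 3 passed the filter, Gzmc, Gzmd and Gzmm, and 0 were called in any of the 5 comparisons by edgeR. The smallest adjusted p was 0.0881, for Gzmc in the interaction.

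The first comparison asks how Keap1 deletion goes with these genes among tumours started with BAP. All 10 had higher fitted levels in Keap1-deleted than in Keap1-wildtype BAP tumours, and 7 of 10 rose by edgeR's quasi-likelihood test at an adjusted p under 0.05. This share must be read against a background in which 20.3% of all genes tested were called higher and 20.0% lower. The median log2 fold change of the 10 genes was 3.76, against -0.0012 over all genes tested. Among effectors, Prf1 rose by 5.39 (SE 1.74, adjusted p = 0.0181) and Nkg7 by 4.79 (SE 1.37, adjusted p = 0.00893) on the log2 scale. Gzma (3.79, SE 1.56, adjusted p = 0.0575), Fasl (2.71, SE 1.17, adjusted p = 0.0702) and Gzmb (2.50, SE 1.17, adjusted p = 0.094) did not pass.

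Among receptors all 4 rose in this comparison. Klrk1 rose by 3.08 (SE 0.86, adjusted p = 0.00789) and Klrd1 by 3.21 (SE 1.11, adjusted p = 0.0264) on the log2 scale. Ncr1 (adjusted p = 0.0105) and Klre1 (adjusted p = 0.0163) had no count in the wildtype group, so their folds are lower bounds, set against 3 counts spread over the group: Ncr1 was at least 79.6-fold higher and Klre1 at least 28.9-fold higher in the mean. Eomes rose by 3.73 (SE 1.24, adjusted p = 0.0209). Prf1 and Ncr1 were the 2 of 10 genes whose groups did not overlap, where 13.8% of all genes tested had every deleted tumour above every wildtype tumour.

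Without Keap1-deleted BAP 1, 3 of the 10 passed: Nkg7 (3.49 on the log2 scale, adjusted p = 0.0415), Ncr1 (at least 29.1-fold) and Klre1 (at least 19.2-fold). Prf1 then stood at 2.80 (adjusted p = 0.163), Klrd1 at 2.54 (adjusted p = 0.0828), Klrk1 at 2.09 (adjusted p = 0.0504) and Eomes at 3.24 (adjusted p = 0.0501). Gzma turned from 3.79 to -1.51 and Gzmb moved from 2.50 to 0.179, so for both granzymes the direction or size rested on that tumour. Without both high tumours 3 genes passed again, but not the same 3: Nkg7 (3.49, adjusted p = 0.0234), Klrk1 (2.09, adjusted p = 0.0279) and Eomes (3.25, adjusted p = 0.0349). Ncr1 and Klre1 then fell below the low-count filter, and Prf1 (adjusted p = 0.0935) and Klrd1 (adjusted p = 0.0703) did not pass. Over all genes that fit called 3977 higher and 3859 lower, against 3900 and 3846 with all libraries. The background of calls had thus not shrunk along with the count of the 10 genes. Leaving out the library labelled Keap1-deleted BAP 2 instead gave 8 called genes, with Gzma added at 4.10 (adjusted p = 0.0485). Without Keap1-wildtype BAP 3 Klrd1 stood at 3.0 (adjusted p = 0.0519) and Fasl passed at 3.78 (adjusted p = 0.0296). Gzma passed in 3 of the 11 fits that left out a library of these groups. Over all genes these 11 fits gave 6768 to 7536 calls, against 7746 with all libraries.

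Leukocyte markers as a whole moved the same way. Ptprc and the other 9 leukocyte markers all rose, summing to 569 to 1390 CPM in Keap1-deleted BAP tumours and 59.5 to 126 CPM in Keap1-wildtype BAP tumours, and 10 of 10 macrophage and 10 of 10 fibroblast markers rose as well, while 10 of 10 basal keratinocyte markers fell. Per 100 CPM of leukocyte markers, the 9 genes without Eomes summed to 10.9 CPM in Keap1-deleted BAP 1 and to 0.357 to 1.21 CPM in the other 4 Keap1-deleted BAP tumours, against 0.864 to 2.63 CPM in Keap1-wildtype BAP tumours. Those 4 tumours were below the Keap1-wildtype BAP median of this ratio, 2.08 CPM. With the Ptprc level as a covariate 0 of the 10 genes passed, and neither did any of all genes tested, 7746 of which passed without the covariate. The part of leukocyte content in the result was not tested.

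**Figure D3:**
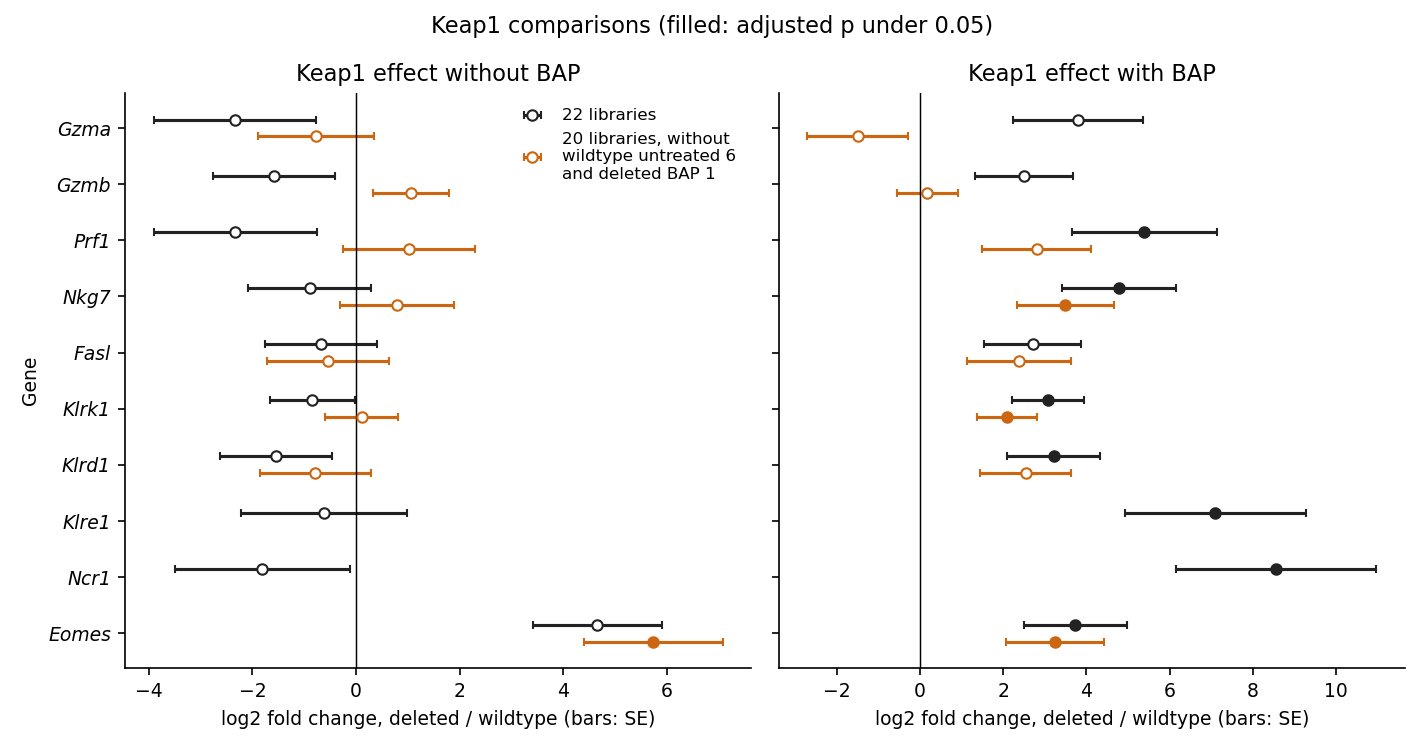
Log2 fold change of Keap1-deleted over Keap1-wildtype tumours (points, with SE bars) without and with BAP, from all 22 libraries (black) and without the 2 high libraries (orange); filled points have an adjusted p under 0.05. Black points for Ncr1 and Klre1 with BAP come from a group at 0 counts and are no measure of size, and neither gene passed the filter in 20 libraries; Gzma with BAP changes sign between the fits, from 3.79 to -1.50.

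Without BAP, 0 of the 10 genes were called between Keap1-deleted and Keap1-wildtype tumours by edgeR, where 0.214% of all genes were called higher and 0.0781% lower. At an unadjusted p under 0.05 there was 1 of 10, against 17.6% of all genes. It was Eomes, at a log2 difference of 4.66 (SE 1.24, adjusted p = 0.089), which DESeq2 called (adjusted p = 0.00363). The other 9 had negative log2 differences between -0.615 and -2.34, and the median of the 10 was -1.22 against -0.051 over all genes. The sign of 4 of the 9 turned without Keap1-wildtype untreated 6, and Ncr1 and Klre1 fell below the low-count filter and had no value. Gzmb then stood at 1.06, Prf1 at 1.01, Nkg7 at 0.781 and Klrk1 at 0.10, none past the threshold, while Eomes passed at 5.73 (adjusted p = 0.0104). Gzma (-0.776) and Klrd1 (-0.793) stayed negative without it, and Fasl was negative in all 11 fits that left out a library. Over all genes the count of calls went from 56 to 2731 when that library was left out.

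Eomes was thus the gene whose Keap1 difference was large in both settings, 4.66 without and 3.73 with BAP, although edgeR called the first only where Keap1-wildtype untreated 6 was left out, alone or with Keap1-deleted BAP 1. The second missed the threshold without Keap1-deleted BAP 1 alone (adjusted p = 0.0501) and passed it without both (3.25, adjusted p = 0.0349). The 8 other tested genes within 500000 bases of Eomes went in different directions. Itga9, an integrin chain, had medians of 6.31 CPM without and 4.16 CPM with BAP in Keap1-wildtype tumours, and of 24.8 and 24.0 CPM in Keap1-deleted tumours. Ctdspl, a phosphatase gene, had medians of 66.7, 67.9, 38.7 and 15.1 CPM in the same order. These neighbours and Trdc were picked after their values were seen. Trdc, the constant segment of the T cell receptor delta chain, was highest in Keap1-deleted untreated 2, the tumour with the most Eomes, at 35.5 CPM.

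BAP in Keap1-wildtype tumours gave 0 called genes of 10, and 0.00% of all genes were called in either direction. All 10 had negative log2 differences, from -1.30 for Eomes to -4.14 for Prf1 among genes counted in both groups, and 7 of 10 had an unadjusted p under 0.05, against 13.7% of all genes. DESeq2 called 3 of the 7 genes for which it gave an adjusted p, Klrk1 (-2.58, adjusted p = 0.0298), Nkg7 (-4.05, adjusted p = 0.0182) and Ncr1, together with 892 genes in all. Without Keap1-wildtype untreated 6 Prf1 shrank to -0.803, Gzma to -0.304 and Eomes to -0.23, and Gzmb turned to 0.551. Ncr1 was at least 33.4-fold higher in the mean of the untreated group than the floor of the BAP group, and at least 2.70-fold without that library.

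BAP in Keap1-deleted tumours also gave 0 called genes of 10, where 0.943% of all genes were called higher and 5.16% lower, and DESeq2 called 0 of the 6 genes for which it gave an adjusted p. The 1172 calls over all genes went from 181 (without Keap1-deleted untreated 1) to 1597 (without Keap1-deleted untreated 3) on leaving out a library. Unadjusted p values were under 0.05 for 2 of the 10, against 20.3% of all genes, so this share was at the background. The 2 were Gzma (4.26, SE 1.71, adjusted p = 0.154) and Prf1 (3.57, SE 1.69, adjusted p = 0.236). Eomes was the only gene with a negative difference, -2.23 (SE 1.20, adjusted p = 0.31). Without Keap1-deleted BAP 1 Gzma turned to -1.04 and Gzmb from 1.99 to -0.333, and Prf1 moved to 0.98.

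The interaction, the Keap1 difference with BAP minus that without, was positive for all but Eomes (-0.931) and was called for 2 of 10, against 2.47% of all genes higher and 4.47% lower. The 1333 calls behind those shares went from 1 (without Keap1-deleted untreated 1) to 2309 (without Keap1-wildtype untreated 1) on leaving out a library. Klrk1 stood at 3.92 (SE 1.19, adjusted p = 0.0497) and Ncr1 had an adjusted p of 0.0477, with a fitted value that rests on a group at 0. Both were near the threshold: Klrk1 stayed called in 6 of 22 fits that left out a library and Ncr1 in 5 of 21. With both high tumours left out Klrk1 stood at 1.99 (adjusted p = 0.261) and Ncr1 did not pass the filter. The 5 comparisons share groups, so their values stand side by side and are not separate observations.

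Genes around the killing pathway moved in both directions between the BAP groups, where 20.3% of all genes tested were called higher and 20.0% lower, with a median log2 difference of -0.0012. Of 10 genes for loading and releasing granules, 4 rose and 3 fell with Keap1 deletion, with a median of 0.0271. Serpinb9, an inhibitor that protects cells from granzyme B, rose by 3.55 (SE 0.577, adjusted p = 0.000355), and its relative Serpinb9b rose by 6.0 (SE 1.4, adjusted p = 0.00246). Stxbp2 fell by 1.74 (SE 0.284, adjusted p = 0.000361) and Stx11 by 1.27 (SE 0.335, adjusted p = 0.00546), which encode partners in granule fusion that other cells also express. Of 5 tested death receptors, ligands and cytokines (median 0.874), 2 rose, the receptors Fas (1.62, SE 0.491, adjusted p = 0.0125) and Tnfrsf10b (0.88, SE 0.278, adjusted p = 0.016). Tnfrsf10b did not pass without the library labelled Keap1-deleted BAP 2 (0.704, adjusted p = 0.0616).

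Among 16 tested NK receptors and adaptors other than the 10 genes, 6 rose and 2 fell, with a median of 1.34, against 20.3% of all genes higher and 20.0% lower. Fcgr3, an Fc receptor that macrophages also carry, rose by 4.41 (SE 0.764, adjusted p = 0.000447), and Tyrobp, the adaptor DAP12, which myeloid cells use as well, rose by 3.81 (SE 0.772, adjusted p = 0.00101). Klra4, a member of the Ly49 family, rose by 5.51 (SE 1.22, adjusted p = 0.00174). Itga2, an integrin chain that keratinocytes carry too, fell by 2.17 (SE 0.417, adjusted p = 0.000699). S1pr5, listed as an NK marker, fell by 3.89 (SE 0.905, adjusted p = 0.00246): it stood at 10.2 to 20.3 CPM in Keap1-wildtype BAP tumours, where Ncr1 had no count, and at 0.272 CPM in Keap1-deleted BAP 1. Klra8, another NK marker, had no count in 20 of 22 libraries, Keap1-deleted BAP 1 and Keap1-wildtype untreated 6 included. Of the 6 defining NK markers, Ncr1, Klrb1c and Klre1 were therefore high in both high tumours, S1pr5 and Klra8 were at or near 0, and Eomes ranked 4 of 22 in Keap1-deleted BAP 1 and 6 of 22 in Keap1-wildtype untreated 6.

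Of 11 ligands that NK receptors recognise, 5 rose and 2 fell with Keap1 deletion under BAP, with a median of 1.3. Of all genes 20.3% rose and 20.0% fell, so the share of ligands that fell was near the background. Cd48, a ligand of the receptor CD244 that leukocytes carry, rose by 3.90 (SE 0.685, adjusted p = 0.000453), and Pvr, a ligand of CD226 and CD96, rose by 1.46 (SE 0.375, adjusted p = 0.00476). Clec2d rose by 1.39 (SE 0.362, adjusted p = 0.00501). H60b, a ligand of NKG2D, rose by 4.70 (SE 1.19, adjusted p = 0.00428), but it overlaps Raet1e, another such ligand, on the same strand, so its counts are uncertain. The ligands named here are those with the smallest p, and all of them rose. The 2 that fell are not among them, and log2 differences of the 11 ligands ran from -3.91 to 4.70.

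Of 10 tested transcription factors of cytotoxic lymphocytes, 3 rose and 2 fell (median 0.27), close to the 20.3% and 20.0% of all genes. Zeb2 rose by 4.03 (SE 0.612, adjusted p = 0.000314) and Runx3 by 1.98 (SE 0.634, adjusted p = 0.0176), while Prdm1 fell by 2.42 (SE 0.384, adjusted p = 0.000332) and Gata3 by 1.85 (SE 0.628, adjusted p = 0.0237). Prdm1 and Gata3 are also keratinocyte genes. Of 8 tested cytokines and chemokines that act on or come from NK cells, 3 rose and 1 fell (median 0.754). Il15, on which NK cell survival depends, rose by 2.61 (SE 0.59, adjusted p = 0.002), from a median of 1.54 to one of 6.47 CPM. Xcl1 (5.36, SE 1.99, adjusted p = 0.0366) and Ccl5 (3.16, SE 1.21, adjusted p = 0.0426) rose too, and Il18, which keratinocytes store, fell by 1.66 (SE 0.481, adjusted p = 0.00974). Without Keap1-deleted BAP 1 the calls of Klrb1c, Il2rb, Ctsw, Xcl1, Ccl5 and Gata3 were lost, the adjusted p rising to between 0.057 (Gata3) and 0.142 (Ctsw). Without both high tumours Ctsw (adjusted p = 0.106) and Ccl5 (adjusted p = 0.0538) did not pass and Klrb1c was filtered out, while Il2rb, Xcl1 and Gata3 passed. Without the library labelled Keap1-deleted BAP 2 Gata3 (adjusted p = 0.0525) and Ccl5 (adjusted p = 0.0534) did not pass.

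In the other comparisons few of these genes passed. Without BAP 0 of them were called, and without Keap1-wildtype untreated 6 Srgn (2.11), Serpinb9 (2.21), Fcgr3 (2.51), Tyrobp (2.61), Zeb2 (2.39) and Runx3 (1.91) were among those that did. BAP in Keap1-deleted tumours gave 3 lower calls, where 5.16% of all genes were called lower. They were S1pr5 (-3.17, adjusted p = 0.0388) of 16 receptors and adaptors, H60c (-4.10, adjusted p = 0.0434) of 11 ligands and Prdm1 (-2.03, adjusted p = 0.015) of 10 transcription factors. The other lists had none, so these calls were near the background. In the interaction 2.47% of all genes were called higher and 4.47% lower. Fcgr3 (3.48, adjusted p = 0.0425) and Il15 (3.05, adjusted p = 0.0357), 1 of 8 cytokines and chemokines, were called higher there. S1pr5 (-3.80, adjusted p = 0.0489) and Prdm1 (-2.46, adjusted p = 0.0292) were called lower, so these calls were few as well. Without Keap1-deleted BAP 1 S1pr5 (adjusted p = 0.0883) and H60c (adjusted p = 0.0967) no longer passed for BAP in Keap1-deleted tumours. Fcgr3, Il15 and S1pr5 then did not pass in the interaction. BAP in Keap1-wildtype tumours gave none.

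The 15 T cell markers summed to 61.0 CPM in Keap1-wildtype untreated 6 and to 23 CPM in Keap1-deleted BAP 1. These were ranks 5 and 21 of 22, both inside the range of the other 20 tumours, 22.5 to 82.5 CPM. With BAP this sum was 22.5 to 27.9 CPM in Keap1-deleted tumours. In Keap1-wildtype BAP tumours it was higher, 51.7 to 69.9 CPM, without overlap. Trbc2 and Cd5 fell with Keap1 deletion under BAP along with the keratinocyte markers, by 2.32 and 3.70 on the log2 scale, so the sum was also taken without them, a choice made after their values were seen. The remaining 13 markers summed to 41.0 and 16.7 CPM in the 2 high tumours and to 5.73 to 65.7 CPM in the others, which placed Keap1-wildtype untreated 6 at rank 2 and Keap1-deleted BAP 1 at rank 12 of 22. Per 100 CPM of these 13 markers the 9 genes without Eomes summed to 520 CPM in Keap1-deleted BAP 1 and 128 CPM in Keap1-wildtype untreated 6, against 3.55 to 50.6 CPM in the others. Keap1-deleted untreated 2, where Trdc was highest, set both the 65.7 CPM sum and the lowest ratio, 3.55 CPM. With BAP this ratio ran from 29.9 to 520 CPM in Keap1-deleted tumours and from 9.74 to 22.9 CPM in Keap1-wildtype tumours, which did not overlap, so it was higher in Keap1-deleted tumours where the ratio to leukocyte markers was below the wildtype median in 4 of 5. Cd3e stood at 0.543 and 0.259 CPM in the 2 tumours, and Cd8b1 at 0.0603 and 1.4 CPM.

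**Figure D4:**
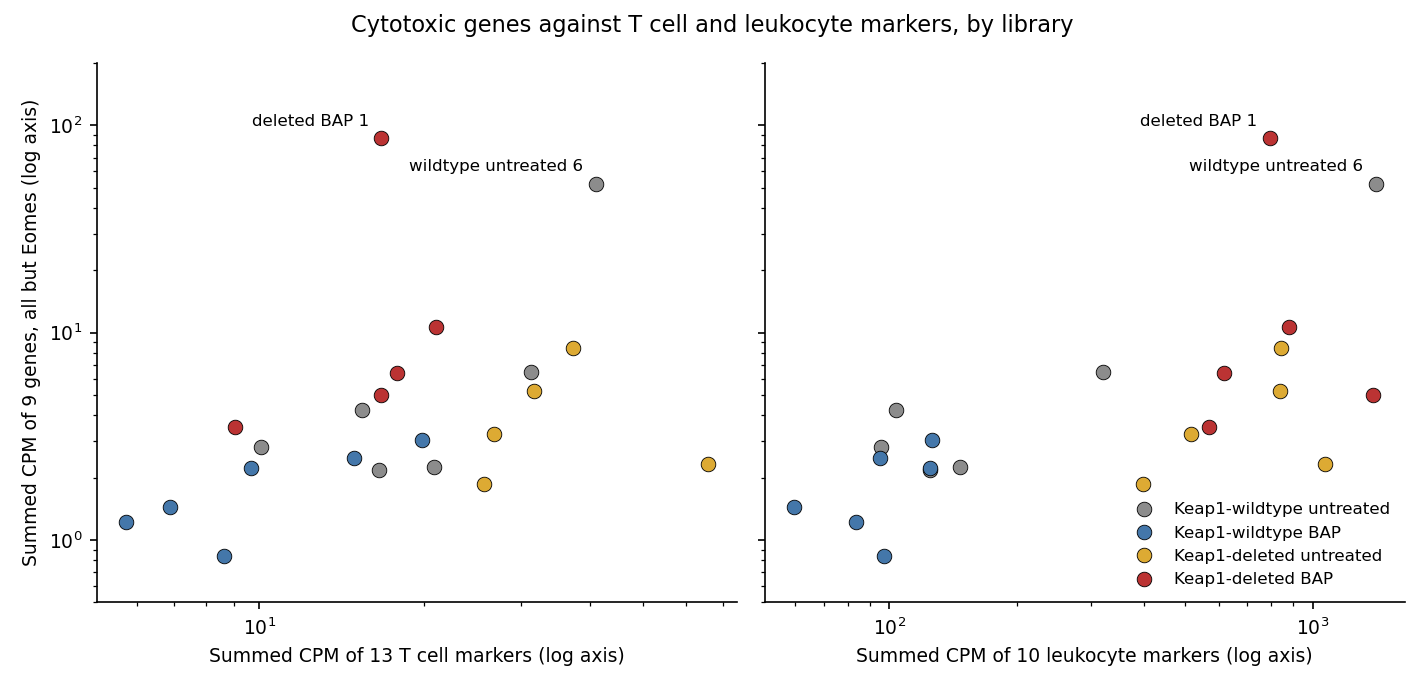
Summed CPM of the 9 genes without Eomes (vertical, log axis) against the summed CPM of 13 T cell markers (left) and of 10 leukocyte markers (right), each point a library, coloured by group. Keap1-deleted BAP 1 (86.7 CPM) and Keap1-wildtype untreated 6 (52.4 CPM) lie above all others. The former ranks 12 of 22 on these 13 T cell markers (16.7 CPM) but 21 of 22 on all 15. The latter is at the highest leukocyte level (1410 CPM).

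The genes whose levels went most closely with the mean of the 10 genes, after subtraction of group means over 22 libraries, were Oas1a (r = 0.897), Oas3 (0.893), Igtp (0.884), Bst2 (0.881), Irf7 (0.877), Mx1 (0.872), Dhx58 (0.871) and Gsn (0.867). Oas1a stood at 122 CPM in Keap1-wildtype untreated 6 and 78.5 CPM in Keap1-deleted BAP 1, against a highest value of 22.8 CPM elsewhere, and Irf7 at 384 and 304 CPM against 78.9 CPM. The 2 high tumours ranked first and second for each of the 8 genes. In the other 20 libraries the same correlations were 0.563 for Oas1a, 0.565 for Irf7 and 0.738 for Igtp. These are descriptions of libraries that share depth and cell make-up.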

How the data were processed

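Frozen tumours were pulverised and RNA was taken up with a column kit and sequenced as paired-end Illumina reads, per the labels' protocols. The deposited expected counts per Ensembl gene ID came from RSEM, per the file names and headers; they were whole numbers (within 1e-09), so rounding changed nothing, and the authors deposited 1 length per gene, the same in all 22 files. The aligner, strand setting and genome build were not given in the sources used here. Symbols came from GENCODE M21 (GRCm38), which named 52073 of the 56748 IDs, holding 99.39% of counts; coordinates are those of that annotation. No pair of libraries looked like a duplicate: over 231 pairs and 12352 genes, chi-square per degree of freedom was at least 96.5.

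From the counts, edgeR 4.0.16 (R 4.3.3, limma 3.58.1) was used with TMM scaling, its low-count filter (minimum count 10) and the robust quasi-likelihood F test, all 22 libraries in 1 fit with 4 groups. Benjamini-Hochberg adjustment ran over all 19202 genes tested, and a call is an adjusted p under 0.05. SE is the log2 fold change divided by the square root of F. DESeq2 1.42.0 was an alternative test. Tables were made with Python 3.11.15 and pandas 2.3.3. The fitting code was tested on simulated data, with changes set in Keap1-deleted BAP for genes drawn from all those tested. A log2 change of 2 in either direction was called in 45.3% of such genes and one of 4 in 71.7%. A gene that was not called may therefore still differ. All 10 genes passed the filter, so the exact permutation test planned for genes below it was not needed.

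All 10 genes are named. From each pathway list up to 4 called genes with the smallest p are named, and the 8 genes of most like pattern were taken from tested genes with a mean of at least 1 CPM. The 10 genes and all lists were chosen with earlier results of these data known. Alternatives were another scaling, test, filter, set of groups or covariate, and leaving out each library.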

Additional observations from a re-analysis of the deposited data

Results flagged for a closer look

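Within groups, 15 of 38 tests for a single library far from the rest of its group were positive (Dixon's test at 95%, on CPM). The rate of about 1 in 20 by chance holds for normally distributed values. It cannot be taken as the background for CPM with many zeros. A group with 1 library above 0, as for Klre1 in Keap1-wildtype untreated tumours, is flagged whatever the level. Keap1-wildtype untreated 6 accounted for 8 of them: Gzma at 5.41 CPM, Gzmb at 18.0, Prf1 at 8.78, Nkg7 at 6.35, Klrk1 at 4.46, Klre1 at 0.674, Ncr1 at 3.24 and Eomes at 1.17 CPM. Keap1-deleted BAP 1 accounted for 6: Gzma at 23.4 CPM, Gzmb at 19.5, Prf1 at 16.4, Nkg7 at 8.57, Klrk1 at 5.73 and Ncr1 at 4.89 CPM. The last was Klre1 in Keap1-deleted untreated 3, at 0.284 CPM. The tests on 1 library share its RNA and are not independent of each other. Klrd1 and Fasl had no such library.

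The Keap1 difference with BAP differed from that without BAP, by edgeR's interaction term, for Klrk1 (3.92 on the log2 scale, adjusted p = 0.0497) and Ncr1 (a fitted 10.4, adjusted p = 0.0477, which rests on a group with no count and is no measure of size). Leaving out single libraries gave adjusted p values of 0.0339 to 0.117 for Klrk1 and 0.0321 to 0.0931 for Ncr1.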

How the results depend on the processing

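No paired analysis was possible because the labels give no replicate numbers; the numbers used here follow the order of deposition. The count of the 10 genes called with BAP went from 7 to 3 under a filter of 1 CPM in 5 libraries, 0 with the Ptprc level and 0 with the basal keratinocyte score as covariate, and 3 without both high libraries (chosen after seeing the data; Nkg7, Klrk1 and Eomes, of 8 tested); single libraries left out gave 3 (Nkg7, Ncr1 and Klre1, without Keap1-deleted BAP 1) to 8. Without BAP it went from 0 to 1 by DESeq2 and 1 without both libraries, with 0 to 1 on leaving out libraries. For BAP in Keap1-wildtype tumours DESeq2 gave 3. The interaction went from 2 to 5 with library totals, 4 by DESeq2, 0 without a filter, 1 at 1 CPM, 6 with a title ending in R (unexplained in the labels) as covariate, 0 with either marker covariate and 0 without both libraries; single libraries gave 0 to 5.

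Directions that turned were these, on the log2 scale. With both libraries left out, Fasl (-0.233), Gzma (-1.04) and Gzmb (-0.332) turned for BAP in deleted tumours, Gzmb (0.551) for BAP in wildtype, Gzma (-0.734) and Gzmb (-0.883) in the interaction, Gzma (-1.5) for Keap1 with BAP, and Gzmb (1.06), Klrk1 (0.106), Nkg7 (0.786) and Prf1 (1.02) for Keap1 without BAP. With the Ptprc covariate, Gzma (0.896), Gzmb (1.1), Klre1 (0.868), Ncr1 (0.142) and Prf1 (0.673) turned for BAP in wildtype and Gzmb (-1.06) for Keap1 with BAP. With the keratinocyte covariate, Fasl (-0.355), Gzmb (-0.463), Klre1 (-0.61) and Nkg7 (-0.00272) turned for BAP in deleted, Gzmb for BAP in wildtype (0.294), the interaction (-0.757) and Keap1 with BAP (-1.1), and Klre1 (0.727) for Keap1 without BAP. Leaving out single libraries gave -2 to 0.031 for Eomes in the interaction, -1.51 to 4.14 for Gzma in Keap1 with BAP, and, for BAP in deleted tumours, -0.291 to 1.11 for Fasl, -1.04 to 4.58 for Gzma and -0.333 to 2.27 for Gzmb. It gave -2.48 to 0.551 for Gzmb in BAP in wildtype, and, for Keap1 without BAP, -1.84 to 1.06 for Gzmb, -1.14 to 0.1 for Klrk1, -2.01 to 0.781 for Nkg7 and -3.29 to 1.01 for Prf1. The cause was not tested.

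Over all genes, calls without BAP went from 56 to 944 (DESeq2), 36 (no filter), 0 (compared groups only), 28 (R), 0 (Ptprc), 145 (keratinocyte) and 2697 (both libraries out). For BAP in wildtype they went from 0 to 892 (DESeq2) and 37 (R), and for BAP in deleted from 1172 to 2112 (DESeq2), 398 (no filter), 352 (compared groups only) and 2 (keratinocyte). The interaction went from 1333 to 3008 (DESeq2), 111 (no filter), 3021 (R), 1 (Ptprc), 0 (keratinocyte) and 819 (both out), and Keap1 with BAP from 7746 to 0 with either marker covariate. Library totals split the latter 6051 higher and 2193 lower against 3900 and 3846, moving the median of all genes by 0.445; none of the 10 genes changed direction under any scaling. In 82 combinations of gene, comparison and setting there was no value, as the gene was filtered out or DESeq2 gave no adjusted p. At these counts a gene at 0 may still be expressed below 0.0173 CPM over 6 libraries.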
